A study of Mus musculus with 12 samples.

Results

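The 39 genes described here carry out or start DNA replication: the Mcm2 to Mcm7 helicase, origin licensing and firing factors, replicative polymerases and primase, the sliding clamp and its loader, deoxynucleotide synthesis, cyclin E and E2f1, and the factors that copy chromatin and supply histones. They were chosen by name, with earlier results of these data known, and each was represented by its brightest probe on the array. All 39 of the 39 genes were on the array, with 46 probes (7 genes had 2), among 32451 gene names in all. All 39 also passed the filter on dim probes, Ccne2 only through the negative control arrays, as did 24561 gene names in all.

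RNA came from C2C12 cells, a mouse myoblast line that divides in serum and can leave the cell cycle to form myotubes. The labels name 4 transfections, each with 3 single-colour Agilent arrays of cells taken 72 h later: negative control, pcDNA3.1 (an expression plasmid), pcDNA3.1-MEG3 and siRNA. The series was built to set overexpression and knockdown of MEG3, a long non-coding RNA, against their controls. The labels do not say whether the negative control was a control siRNA, whether pcDNA3.1 was empty, or whether replicates came from different cultures. The p-values therefore rest on the spread among these samples alone, and that spread may be technical. All 4 groups share the cell line, the serum medium and the time. The labels also describe a cell proliferation assay on transfected cells; no reading of it was analysed here, so the values below are RNA levels and not a measure of division. In a culture of mixed cells, fewer replicating cells and less RNA per cell cannot be told apart.

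Meg3 itself went against the plasmid labels. Its signal cleared the background on all 3 of the pcDNA3.1 arrays (mean level -2.43) but on 0 of the 3 labelled pcDNA3.1-MEG3 (mean level -7.17), at least 18.9-fold dimmer (limma adjusted p = 0.0841, not past the threshold). It cleared the background on 1 of 3 negative control arrays (mean level -6.69) and 0 of 3 siRNA arrays (mean level -7.31), so the knockdown could not be checked. Group names below are those on the labels, and directions are stated for the arrays so labelled. Of 9 myoblast and muscle markers, 7 were well above background on all 12 arrays, the exceptions being Pax7 (1 siRNA array of 3) and Myf5 (2 arrays with pcDNA3.1, 1 with pcDNA3.1-MEG3). Of the markers of other cells, 4 of 5 for fibroblasts, 1 of 5 for adipocytes, 2 of 4 for macrophages, 2 of 5 for endothelium and 1 of 5 for epithelium were so, and Epcam, Cdh1 and Krt18 of the last were so on no array.

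Levels are the log2 of the processed signal minus the 75th percentile of the array, so that 0 is the level of that percentile, and each difference is a difference of such levels. Replicates 1 and 3 of each group were averaged and counted as 1 sample, which left n = 2 samples per group. For pcDNA3.1, pcDNA3.1-MEG3 and siRNA they shared a slide position and differed by 0.219 to 0.355 times the noise between spots. For the negative control they differed by 1.06 times that noise, while replicate 2 lay 2.61 and 2.79 times the noise away. Replicates 1 and 2 of the plasmid groups differed by a like amount (1.07 and 1.04 times) and were still kept apart, which is an uneven treatment. A gene was called higher or lower at a limma adjusted p under 0.05 over all genes tested. The negative control, the plasmid groups and the siRNA group were scanned at separate times, the negative control in another month. The header fields used give a position and a scan date but name no slide. Separate slides, and 1 slide shared by the plasmid groups, were inferred from these. Scan and group therefore cannot be told apart outside the comparison of the plasmids. The 75th percentile of the signal ran from 1168 to 2266 over the arrays. Of 39429 probes, 24125 to 26823 were well above background on the siRNA arrays and 27250 to 29900 on all others. The siRNA arrays also had more outlying spots, 345 to 587 against 139 to 259 on the others. What this difference in array quality does to the comparisons was not tested, and the number of arrays limits the precision.

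Before a cell can copy its DNA, the origin recognition complex, Cdc6 and Cdt1 load the Mcm2 to Mcm7 ring onto origins in G1, and Cdc45 and the GINS complex turn it into an active helicase at the start of S phase. Cyclin E with its kinase and the E2F factors drive this step, and many of the genes below are textbook targets of E2F, which binds a short GC-rich motif near their start sites when the pocket proteins release it. Myoblasts switch the programme off when they differentiate for good.

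The promoters of 7 of these genes are shown because they hold, or lack, the E2F letters in genes the results turn on. RefSeq windows of 300 bases (250 before and 50 after the start site, build GRCm38.p6) matched 32 of the 39 genes by symbol; 4 genes had more than 1 window. The 4 words TTTCCCGC, TTTCGCGC, TTTGCCGC and TTTGGCGC were searched on both strands. The printed stretches are the 250 bases before the start site, 5′ to 3′ on the strand of the gene, with these words, or their reverse complements, in capitals. Mcm5 (chr8:75109259-75109508, plus strand) and Mcm6 (chr1:128359706-128359955, minus strand) each hold 2 words that overlap, printed as 1 run of capitals, and Mcm6 holds 1 more. Mcm7 (chr5:138171884-138172133, minus strand), Cdc6 (chr11:98907901-98908150, plus strand), Uhrf1 (chr17:56304063-56304312, plus strand) and Gins3 (chr8:95633309-95633558, plus strand) hold 1 word each in this stretch. Mcm7 and Uhrf1 have 1 other window each, which holds no E2F word. Tyms (chr5:30073626-30073875, minus strand) holds none.
Mcm5: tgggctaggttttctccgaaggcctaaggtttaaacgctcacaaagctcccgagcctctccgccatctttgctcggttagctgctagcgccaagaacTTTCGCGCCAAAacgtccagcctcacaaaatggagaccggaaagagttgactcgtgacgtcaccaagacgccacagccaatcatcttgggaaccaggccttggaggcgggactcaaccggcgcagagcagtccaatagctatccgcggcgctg
Mcm6: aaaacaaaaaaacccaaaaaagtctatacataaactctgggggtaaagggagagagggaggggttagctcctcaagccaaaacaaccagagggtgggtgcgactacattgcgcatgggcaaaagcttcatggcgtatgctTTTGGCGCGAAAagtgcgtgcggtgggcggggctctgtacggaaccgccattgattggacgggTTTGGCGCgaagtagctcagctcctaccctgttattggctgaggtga
Mcm7: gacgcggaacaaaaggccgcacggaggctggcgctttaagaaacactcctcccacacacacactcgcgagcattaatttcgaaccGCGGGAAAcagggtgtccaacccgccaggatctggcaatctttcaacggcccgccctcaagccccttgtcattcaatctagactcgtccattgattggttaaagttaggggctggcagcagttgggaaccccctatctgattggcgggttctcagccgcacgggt
Cdc6: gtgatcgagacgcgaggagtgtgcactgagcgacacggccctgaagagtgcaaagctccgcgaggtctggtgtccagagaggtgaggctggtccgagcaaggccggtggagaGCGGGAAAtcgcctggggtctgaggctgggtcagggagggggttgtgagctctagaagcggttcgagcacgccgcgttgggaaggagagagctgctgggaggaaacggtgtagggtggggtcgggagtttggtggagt
Uhrf1: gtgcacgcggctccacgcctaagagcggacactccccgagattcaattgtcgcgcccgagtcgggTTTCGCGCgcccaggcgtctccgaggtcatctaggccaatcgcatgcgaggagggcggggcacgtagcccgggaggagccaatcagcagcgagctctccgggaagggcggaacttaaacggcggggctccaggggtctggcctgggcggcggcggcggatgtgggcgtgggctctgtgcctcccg
Gins3: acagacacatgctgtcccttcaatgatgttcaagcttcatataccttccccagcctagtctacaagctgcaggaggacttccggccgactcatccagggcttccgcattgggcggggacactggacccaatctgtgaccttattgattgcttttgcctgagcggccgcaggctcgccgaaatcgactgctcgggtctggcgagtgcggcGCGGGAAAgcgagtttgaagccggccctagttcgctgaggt
Tyms: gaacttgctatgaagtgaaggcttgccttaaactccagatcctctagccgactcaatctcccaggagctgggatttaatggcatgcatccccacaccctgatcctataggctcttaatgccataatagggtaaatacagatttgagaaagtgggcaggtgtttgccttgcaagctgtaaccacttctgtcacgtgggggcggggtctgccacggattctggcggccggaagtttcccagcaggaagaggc

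The word in Cdc6 begins 138 bases before the start site, that in Uhrf1 185, that in Mcm7 165 and that in Gins3 41. Over the whole windows, 13 of the 32 genes (40.6%) held at least 1 of the 4 words, against 704 of 27025 genes with a window (2.6%). Among the Mcm2 to Mcm7 genes, 4 of the 5 with a window held one. The CCAAT word stood in 62.5% of the 32 genes and 41.1% of all, and the words TTTGAA and TTCGAA, which resemble the CHR element of late cell cycle genes, in 18.8% and 21.7%; an E2F word overlapped one of these only in Mcm7. As set out below, Mcm5, Mcm7, Cdc6, Uhrf1 and Tyms were called higher on the siRNA arrays, Mcm6 was not called and Gins3 was called lower. Of the genes called higher there, 7 of 15 with a window held an E2F word, and of those not called, 5 of 16. These matches describe the letters and say nothing of binding.

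On the siRNA arrays most of the replication genes lay above the negative control. Against it, 17 of the 39 genes were called higher, where 7.74% of all genes tested were, and 1, Gins3, was called lower, where 4.63% were. The median difference of the 39 genes was 0.66 and that of all genes 0.06. Of the 39 differences 35 were above 0, where 54.1% over all genes were. All 3 siRNA arrays lay above all 3 negative control arrays for 29 of the 39 genes, which held for 27.7% of all genes. The 17 genes came from each of the 7 roles: 3 of the 6 helicase subunits, 3 of 9 licensing and firing factors, 1 of 6 polymerase and primase subunits, 3 of 8 clamp and lagging strand factors, all 3 of the deoxynucleotide synthesis genes, 1 of 3 of cyclin E and E2f1, and 3 of 4 chromatin factors. Fitted on the arrays of these 2 groups alone, limma called 0 of the 39 in either direction, with 20 at an unadjusted p under 0.05; over all genes it called 140 higher and 19 lower, with 4162 at that unadjusted p. Leaving out 1 sample left a group with 1 and changed the number of calls over all genes too, so medians are given. Without replicates 1 and 3 of the negative control they were 0.74 for the 39 genes and 0.15 for all. Without its replicate 2 they were 0.63 and -0.03. Without replicates 1 and 3 of siRNA they were 0.60 and 0.08, and without its replicate 2, with 37 members, 0.73 and 0.09. Of the 17 genes, Pold1, Rfc2, Lig1, Slbp and Chaf1b lost their call in both of these siRNA fits. Mcm5, Cdc6, Mcm10, Tyms, Rrm2 and Uhrf1 kept theirs in both, and the rest lost it without replicates 1 and 3.

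**Figure D1:**
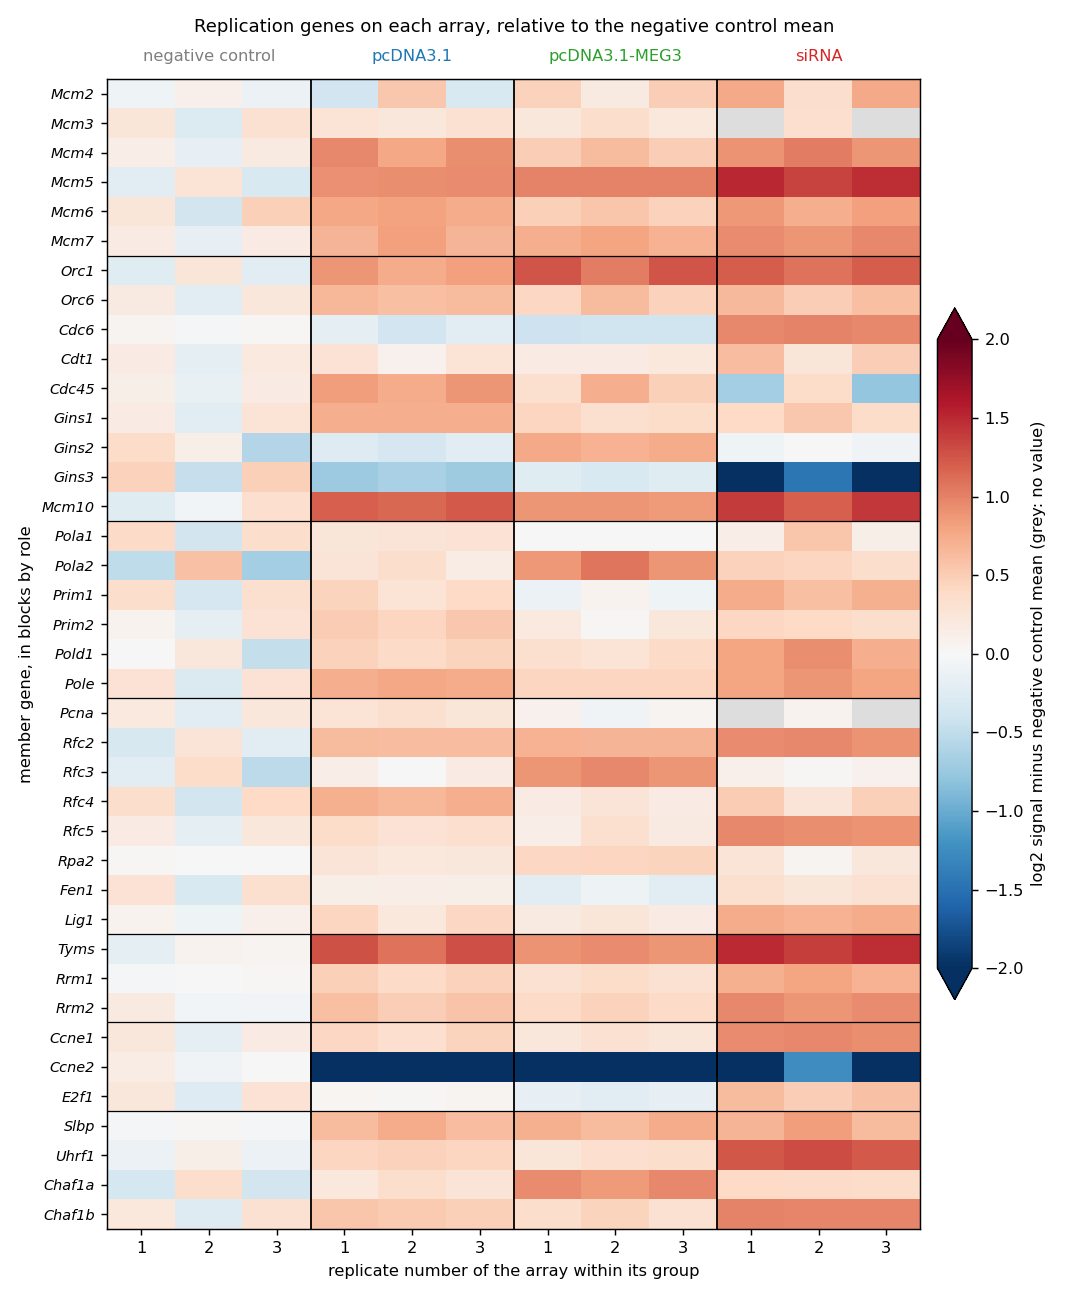
Level of each of the 39 genes on each of the 12 arrays minus the mean of the negative control (log2, colour scale from -2 to 2), with arrays in columns by group and genes in rows by role; grey marks arrays without a value. The siRNA columns are mostly red, with Gins3 and Ccne2 blue, and Ccne2 is blue in all 3 groups other than the negative control.

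Among the helicase subunits, Mcm5 stood out. Its level was -0.61, -0.11 and -0.68 on negative control replicates 1, 2 and 3, 0.54, 0.55 and 0.57 on the pcDNA3.1 arrays, 0.62 on each pcDNA3.1-MEG3 array, and 1.14, 0.98 and 1.097 on the siRNA arrays. The negative control was lowest and siRNA highest with no overlap, and Mcm5 was 2.69-fold higher on siRNA (difference 1.43, SE 0.20, n = 2, limma adjusted p = 0.0123). Mcm4 read 2.07, 1.78 and 2.12 on the negative control and 2.84, 2.97 and 2.82 on siRNA, with pcDNA3.1 at 2.90, 2.71 and 2.87 and pcDNA3.1-MEG3 at 2.43, 2.57 and 2.43. Here siRNA and pcDNA3.1 overlapped, and both lay above the negative control (siRNA difference 0.96, SE 0.17, limma adjusted p = 0.0226). Mcm7 read 2.80, 2.48 and 2.81 on the negative control, 3.32, 3.46 and 3.31 on pcDNA3.1, 3.36, 3.42 and 3.34 on pcDNA3.1-MEG3, and 3.59, 3.52 and 3.60 on siRNA, where the difference was 0.91. It was not called with each array's median as the scale or without siRNA replicates 1 and 3.

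The other ring subunits did not pass. Mcm6 differed by 0.78 and Mcm2 by 0.56, Mcm2 with arrays of pcDNA3.1 that ran from 0.77 to 1.70. Mcm3 had no value on siRNA replicates 1 and 3, because its spots there were marked as outlying, so its difference of 0.33 rests on 1 siRNA sample; with those spots kept it was 0.24.

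Origin licensing and firing factors moved apart from each other. Mcm10, which helps to activate the loaded helicase, read -0.83, -0.63 and -0.24 on the negative control, 0.62, 0.57 and 0.65 on pcDNA3.1, 0.29, 0.31 and 0.27 on pcDNA3.1-MEG3, and 0.82, 0.62 and 0.83 on siRNA. It was 2.47-fold higher on siRNA than on the negative control (difference 1.30, SE 0.14, limma adjusted p = 0.00507), and the negative control arrays were below all 9 others. Orc1, the largest subunit of the origin recognition complex, read -3.66, -3.18 and -3.65 on the negative control, -2.53, -2.67 and -2.60 on pcDNA3.1, -2.16, -2.39 and -2.17 on pcDNA3.1-MEG3 and -2.21, -2.33 and -2.21 on siRNA (siRNA difference 1.15). Its siRNA arrays overlapped those of pcDNA3.1-MEG3 and lay above the other groups.

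Cdc6, the loading ATPase, followed another order; it lay outside the naming rule and is given after its values were seen. It read -2.64, -2.73 and -2.67 on the negative control, -2.88, -3.07 and -2.91 on pcDNA3.1, -3.10, -3.10 and -3.09 on pcDNA3.1-MEG3 and -1.73, -1.69 and -1.73 on siRNA. Its level was thus high on siRNA and lowest on the plasmid arrays, which did not reach the negative control. The siRNA difference from the negative control was 0.98 (SE 0.13, limma adjusted p = 0.0111), and that of its other probe was 1.08. Cdt1, which brings the ring to origins with Cdc6, differed by 0.40 and was not called.

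Gins3 was the member called lower. This GINS subunit read 3.77, 2.85 and 3.78 on the negative control, 2.58, 2.67 and 2.60 on pcDNA3.1, 3.06, 3.01 and 3.07 on pcDNA3.1-MEG3, and 1.09, 1.87 and 1.07 on siRNA. All 3 siRNA arrays lay below all 9 others, and replicate 2 lay nearest to the rest in both the negative control and the siRNA group. The siRNA arrays were 3.58-fold below the negative control (difference -1.84, SE 0.37, limma adjusted p = 0.0330), and without siRNA replicates 1 and 3 or with no filter on dim probes it was not called. Its partners in the same complex did not share the direction at a called level: Gins1 differed by 0.46, Gins2 by -0.03 and Gins4, which is no member of the 39, by 0.20. Cdc45, which joins GINS on the helicase, differed by -0.18 and read -5.28, -4.24 and -5.38 on siRNA, a spread that covered the negative control (-4.49, -4.75 and -4.43).

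**Figure D2:**
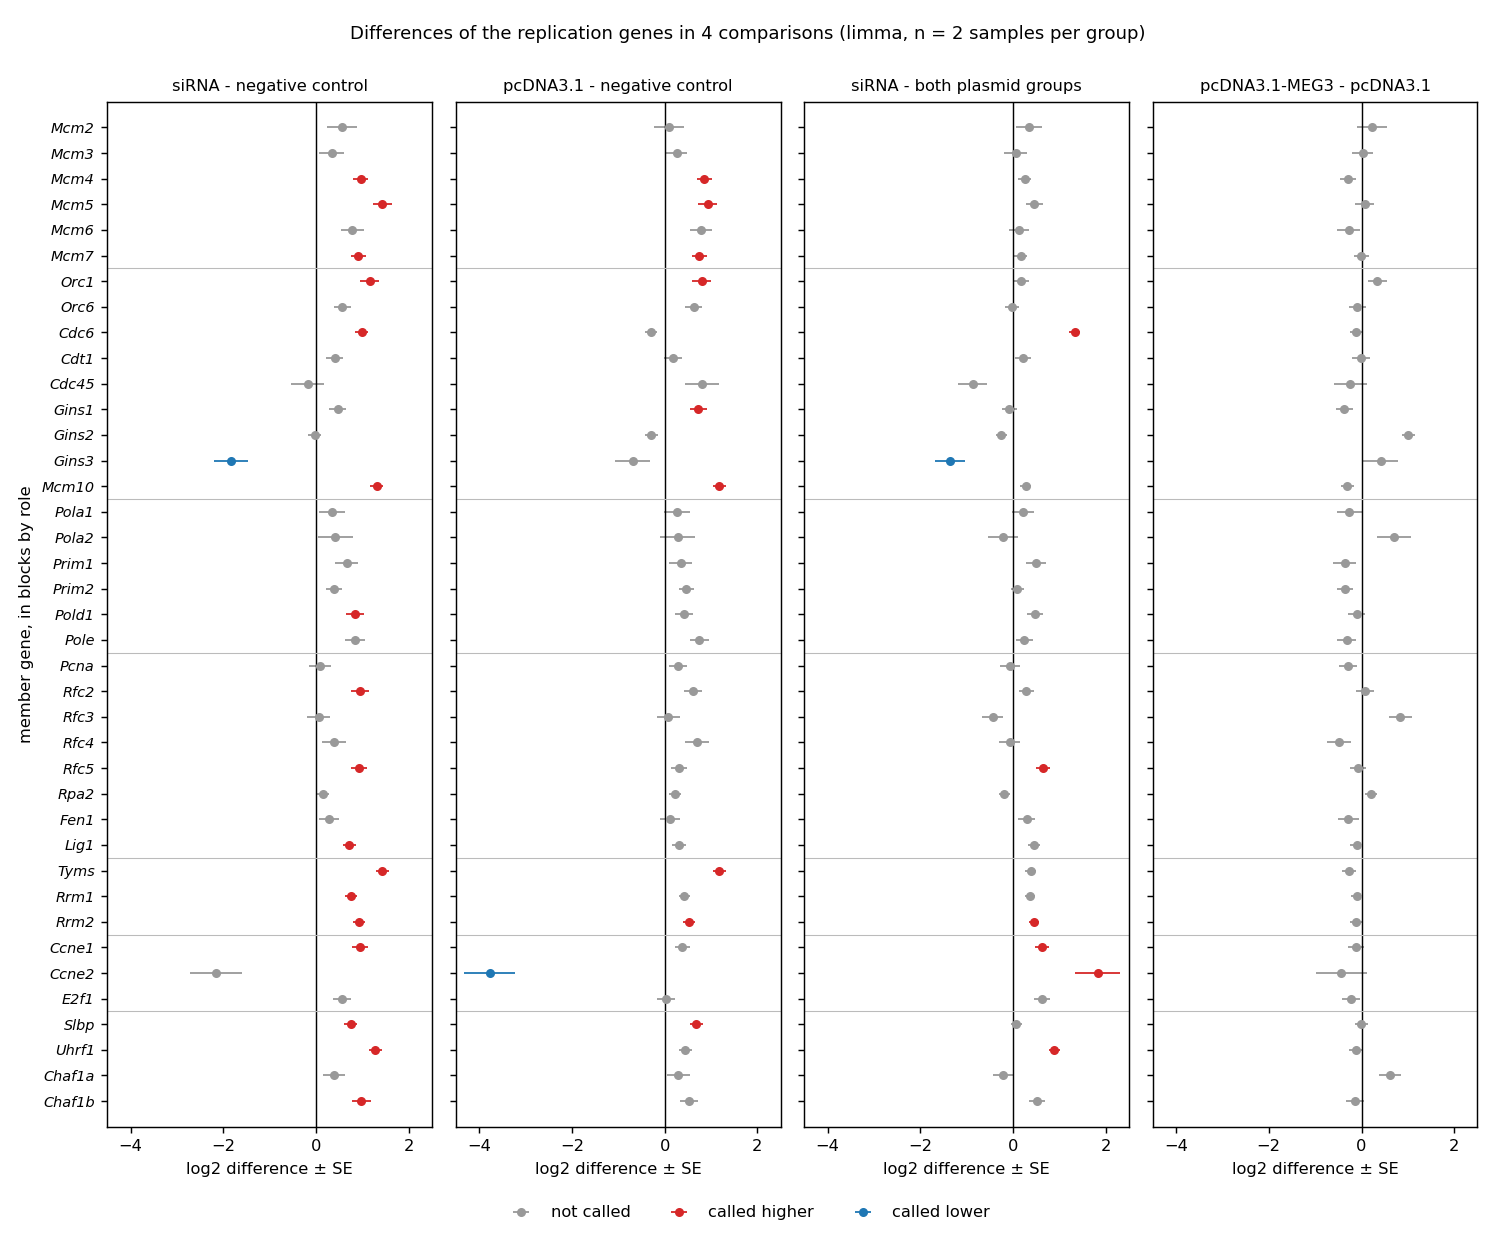
Log2 difference with its standard error (limma, n = 2 samples per group) for each of the 39 genes in 4 comparisons, with genes in rows by role and called genes in colour. The siRNA to negative control panel holds 17 genes called higher and Gins3 called lower, and the plasmid panel on the right holds none.

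Of the polymerase and primase subunits, Pold1, the catalytic subunit of polymerase delta, was called. It read -0.85, -0.63 and -1.34 on the negative control, -0.40, -0.48 and -0.42 on pcDNA3.1, -0.54, -0.59 and -0.48 on pcDNA3.1-MEG3, and -0.07, 0.06 and -0.14 on siRNA. The siRNA arrays were above all others (difference 0.84, SE 0.19, limma adjusted p = 0.0432), and the call was lost under 8 of 17 alternatives. Pole, the catalytic subunit of polymerase epsilon, differed by 0.84 too and Prim1, the catalytic primase subunit, by 0.66; neither was called. The 6 differences of this role ran from 0.34 to 0.84.

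In the clamp and lagging strand role, Rfc5, Rfc2 and Lig1 were called higher. Rfc5, a loader subunit, read 0.56, 0.21 and 0.63 on the negative control, 0.76, 0.69 and 0.73 on pcDNA3.1, 0.53, 0.72 and 0.58 on pcDNA3.1-MEG3 and 1.36, 1.32 and 1.30 on siRNA (difference 0.93, SE 0.17, limma adjusted p = 0.0263). Rfc2 read -0.63, -0.06 and -0.53 on the negative control, 0.32, 0.29 and 0.29 on pcDNA3.1, 0.38, 0.36 and 0.36 on pcDNA3.1-MEG3 and 0.63, 0.64 and 0.57 on siRNA (difference 0.94). Both had siRNA above every other array, Rfc2 with the negative control also below every other. Rfc4 differed by 0.38 by its brightest probe and by 1.01 by the other, and Rfc3 by 0.06; none of these passed. Lig1, the ligase that joins Okazaki fragments, read 0.26, 0.10 and 0.29 on the negative control, 0.62, 0.40 and 0.60 on pcDNA3.1, 0.37, 0.44 and 0.35 on pcDNA3.1-MEG3, and 0.93, 0.88 and 0.93 on siRNA (difference 0.72). Fen1, which trims their flaps, differed by 0.28 and Rpa2, a single-strand binding subunit, by 0.14, and neither was called. Pcna, the clamp, had no value on siRNA replicates 1 and 3, since its spots were marked as outlying; replicate 2 read 4.19, against 4.30, 3.91 and 4.33 on the negative control, and with those spots kept its difference was 0.01.

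All 3 genes of deoxynucleotide synthesis were called higher on siRNA. Tyms, the thymidylate synthase, read 0.72, 0.97 and 0.96 on the negative control, 2.18, 1.99 and 2.20 on pcDNA3.1, 1.81, 1.85 and 1.79 on pcDNA3.1-MEG3 and 2.40, 2.28 and 2.38 on siRNA. With Mcm5 it had the largest called rise of the 39 genes, 2.70-fold (difference 1.43, SE 0.14, limma adjusted p = 0.0042), with siRNA above all other arrays and the negative control below them. Rrm2, the subunit of ribonucleotide reductase that peaks in S phase, read 3.53, 3.29 and 3.29 on the negative control, 3.94, 3.83 and 3.91 on pcDNA3.1, 3.72, 3.80 and 3.73 on pcDNA3.1-MEG3, and 4.31, 4.23 and 4.30 on siRNA (difference 0.92). Rrm1, its large partner, read 1.82, 1.85 and 1.87 on the negative control, 2.32, 2.24 and 2.32 on pcDNA3.1, 2.15, 2.22 and 2.15 on pcDNA3.1-MEG3 and 2.56, 2.64 and 2.54 on siRNA (difference 0.74). The order was the same for all 3 genes, negative control below pcDNA3.1-MEG3, pcDNA3.1 above that, and siRNA highest. The arrays of the plasmid groups did not overlap for any of the 3, but their differences of -0.27 (Tyms), -0.12 (Rrm2) and -0.10 (Rrm1) were not called.

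Of the cyclin E genes, Ccne1 was called higher on siRNA and Ccne2 was not called. Ccne1 read 0.42, -0.01 and 0.36 on the negative control, 0.60, 0.53 and 0.63 on pcDNA3.1, 0.41, 0.50 and 0.44 on pcDNA3.1-MEG3, and 1.14, 1.15 and 1.11 on siRNA. Its siRNA arrays were above all others (difference 0.95, SE 0.17, limma adjusted p = 0.0237). Ccne2 read -4.55, -4.78 and -4.70 on the negative control, clear of the background on all 3. On siRNA it was so on 1 of 3 (levels -7.79, -5.95 and -7.77), and on pcDNA3.1 (-8.70, -8.30 and -8.60) and pcDNA3.1-MEG3 (-8.94, -8.91 and -8.86) on none. The siRNA difference of -2.16 missed the threshold (SE 0.56, limma adjusted p = 0.0589). E2f1 read -0.52, -0.999 and -0.45 on the negative control, -0.70, -0.71 and -0.70 on pcDNA3.1, -0.91, -0.96 and -0.90 on pcDNA3.1-MEG3, and -0.12, -0.25 and -0.16 on siRNA; siRNA was above every other array, yet the difference of 0.55 was not called.

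Of the genes that copy chromatin, Uhrf1, which brings the maintenance methyltransferase to new DNA, read 1.32, 1.57 and 1.32 on the negative control, 1.88, 1.90 and 1.88 on pcDNA3.1, 1.69, 1.78 and 1.80 on pcDNA3.1-MEG3, and 2.69, 2.76 and 2.67 on siRNA. It was 2.42-fold higher on siRNA than on the negative control (difference 1.28, SE 0.14, limma adjusted p = 0.00582), and no groups overlapped. Slbp, which binds the stem loop of histone mRNAs, read 0.55, 0.63 and 0.58 on the negative control against 1.28, 1.43 and 1.23 on siRNA, 1.23, 1.34 and 1.21 on pcDNA3.1 and 1.31, 1.22 and 1.33 on pcDNA3.1-MEG3. The arrays of the siRNA, pcDNA3.1 and pcDNA3.1-MEG3 groups overlapped, and those of the negative control lay below them all (siRNA difference 0.74). Chaf1b, a subunit of chromatin assembly factor 1, read -0.14, -0.62 and -0.05 on the negative control, 0.20, 0.17 and 0.13 on pcDNA3.1, -0.01, 0.09 and -0.05 on pcDNA3.1-MEG3, and 0.63, 0.61 and 0.62 on siRNA (difference 0.98). Chaf1a, the large subunit, differed by 0.38 and was not called.

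**Figure D3:**
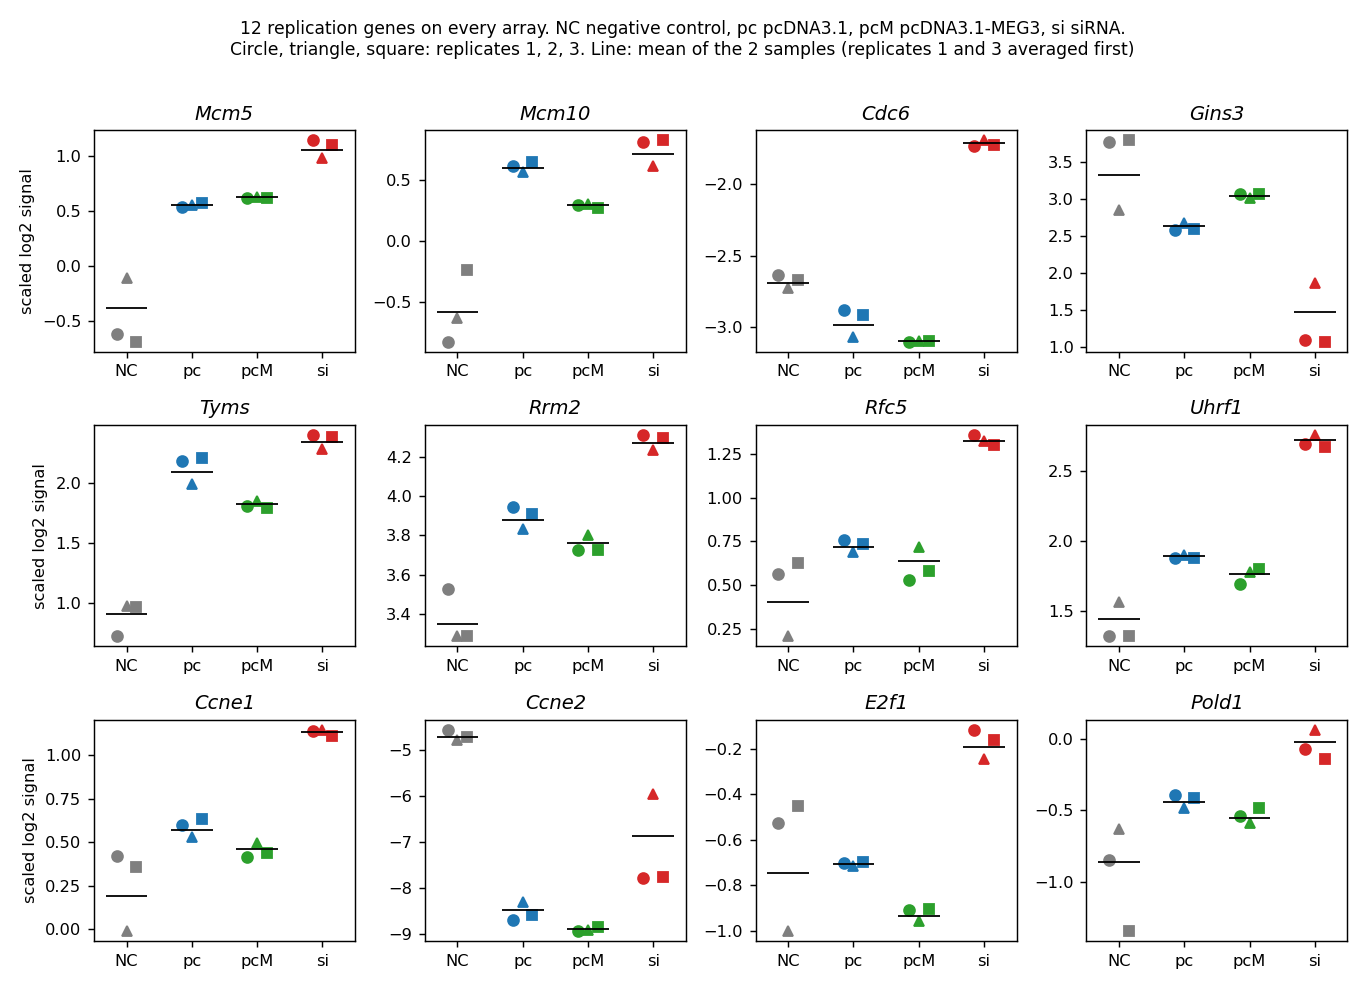
Scaled log2 level of 12 of the genes on every array by group, with a line at the mean of the 2 samples of a group; each panel has its own axis. Cdc6, Uhrf1, Ccne1 and Rfc5 lie highest on siRNA with the other groups closer together, Gins3 lies lowest there, and Ccne2 is high on the negative control alone.

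The pcDNA3.1 arrays also lay above the negative control for many of the genes, but here all genes lay higher too. Of the 39, 9 were called higher, where 11.3% of all genes tested were, and 1, Ccne2, was called lower, where 6.63% were. At an unadjusted p under 0.05 the count was 19 of 39, where that of all genes was 35.7%. The 9 were Mcm4 (0.86), Mcm5 (0.93), Mcm7 (0.75), Orc1 (0.80), Gins1 (0.72), Mcm10 (1.18), Tyms (1.18), Rrm2 (0.53) and Slbp (0.68). Tyms was 2.27-fold higher on pcDNA3.1 (SE 0.14, limma adjusted p = 0.00706). By the processed signal, Ccne2 was at least 3.79-fold lower, since it was not well above background on any pcDNA3.1 array (measured difference -3.77, SE 0.56, limma adjusted p = 0.0118). Over 16 alternatives its measured difference ran from -4.22 to -0.92, so that bound holds for the processed signal alone. Ccne2 passed the filter on dim probes only through the negative control, where it was high. That filter thus bears on its call, which is given as a description. The median of the 39 genes was 0.42 and that of all genes 0.22, and 25 of the 39 had all pcDNA3.1 arrays above all of the negative control, which held for 41.3% of all genes.

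This comparison depended on the scale. With each array's median as the scale, the medians became -0.03 for the 39 genes and -0.23 for all. Of the 39 differences 17 were above 0 in place of 35, and over all genes 35.9% were in place of 63.7%. Of the 39, 2 were called higher and 3 lower, where 1032 and 4194 of all genes were. Over all genes the higher share of the calls went from 62.9% to 19.7%, and with quantile normalisation to 47.2%. Without replicate 2 of the negative control the median was 0.42 for the 39 genes and 0.15 for all. Without its replicates 1 and 3 the medians were 0.53 and 0.32. Without replicate 2 of pcDNA3.1 they were 0.44 and 0.23, and without its replicates 1 and 3 they were 0.39 and 0.19. In both of these pcDNA3.1 fits fewer genes were called higher, among the 39 and over all genes, and Ccne2 was not called. In the siRNA to negative control comparison the array median as the scale gave medians of 0.47 and -0.13. There 32 of the 39 differences were above 0, where 40.2% over all genes were in place of 54.1%. Of the 39, 10 were called higher and 2 lower, where 1093 and 1569 of all genes were. The higher share over all genes was 41.1% in place of 62.5%.

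The plasmid groups were scanned apart from the siRNA group. Set against both plasmid groups, 6 of the 39 genes were called higher on siRNA (10.6% of all genes were) and 1 lower (8.16% of all). The 6 were Cdc6, Rfc5, Rrm2, Ccne1, Ccne2 (mostly at background in these groups) and Uhrf1, and the 1 was Gins3. Cdc6 differed most firmly, 2.51-fold (difference 1.33, SE 0.11, limma adjusted p = 0.00156), followed by Uhrf1 (0.89, SE 0.12, limma adjusted p = 0.00724); both were called under all 19 alternatives. Rfc5 differed by 0.65, Ccne1 by 0.62 and Rrm2 by 0.45, and each of them was lost whichever sample of these groups was left out. Gins3 was 2.56-fold lower (difference -1.36, SE 0.32, limma adjusted p = 0.0376), and it was not called without any 1 of the plasmid samples, without siRNA replicates 1 and 3, or with no filter on dim probes. For Ccne2 the measured difference was 1.83 (limma adjusted p = 0.0499), but no fold is given. Its signal cleared the background on 1 siRNA array and no plasmid array, and it entered the fit only through the negative control. Its call thus compares signals mostly at background, and it was lost under 11 of 18 alternatives. With normexp background correction the difference was 0.56 and not called.

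None of the helicase subunits was called in this comparison, with differences from 0.06 to 0.46. The median of the 39 genes was 0.25 and that of all genes -0.11, and 18 of the 39 had all siRNA arrays above all 6 plasmid arrays, which held for 25% of all genes. The median of all genes depended on dim probes. With only probes well above background on all 12 arrays it was 7.4e-05, and that of the 36 members left was 0.25. With 1 plasmid sample left out, the median of the 39 ran from 0.21 to 0.25 and that of all genes from -0.13 to -0.09. With 1 siRNA sample left out, these medians ran from 0.17 to 0.27 and from -0.08 to -0.04. Fewer of the 39, and fewer of all genes, were called higher in each of these fits. With each array's median as the scale 14 were called higher, where 4435 of all genes were in place of 2593. The higher share over all genes then went from 56.5% to 78.4%. With the outlying spots kept 3 were called higher, where 2256 of all genes were.

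Taking all groups at once, the siRNA arrays lay above all 9 others for 16 of the 39 genes (13.5% of all genes): Mcm5, Mcm7, Cdc6, Prim1, Pold1, Pole, Rfc2, Rfc5, Lig1, Rrm1, Rrm2, Tyms, Ccne1, E2f1, Uhrf1 and Chaf1b. The negative control arrays lay below all 9 others for 18 of the 39 (12.5% of all genes), among them Mcm4, Mcm10, Orc1, Slbp and Gins1. The mean level over the 37 genes with a value everywhere was 0.14, 0.02 and 0.13 on the negative control, 0.41, 0.40 and 0.41 on pcDNA3.1, 0.35, 0.39 and 0.37 on pcDNA3.1-MEG3 and 0.60, 0.66 and 0.57 on siRNA. The order was negative control, both plasmid groups, siRNA, and all 6 plasmid arrays lay closer together than the 3 of the negative control did.

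The comparisons above share control samples, so their values are given side by side and not set against each other. Mcm10 differed from the negative control by 1.30 on siRNA and 1.18 on pcDNA3.1, Tyms by 1.43 and 1.18, Uhrf1 by 1.28 and 0.45, Ccne1 by 0.95 and 0.38, and Cdc6 by 0.98 and -0.29.

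The arrays labelled pcDNA3.1-MEG3 differed little from those labelled pcDNA3.1 in these genes. By limma, 0 of the 39 were called higher (0% of all genes) and 0 lower (0.00814% of all), and 3 had an unadjusted p under 0.05, where 10.2% of all genes did. These were Gins2 (difference 1.01, SE 0.14, limma adjusted p = 0.172), Rfc3 (0.84) and Chaf1a (0.61), all higher on the arrays labelled pcDNA3.1-MEG3. Gins2 read -2.89, -2.97 and -2.84 on pcDNA3.1 and -1.87, -1.93 and -1.88 on pcDNA3.1-MEG3, with the negative control at -2.27, -2.52 and -3.22 and siRNA at -2.72, -2.62 and -2.70. Arrays did not overlap for 9 genes in the higher direction (17.9% of all genes) and 22 in the lower (46.5%), and the medians were -0.11 for the 39 genes and -0.16 for all. Within the first scan of the plasmid groups, with 2 arrays per group, the median of the 39 was -0.12, and within the second, with 1 array per group, -0.18. Fitted on these groups alone or with 12 arrays as 12 samples, 3 members were called higher in each case and 0 lower, where over all genes 1340 and 1495 were called higher and 619 and 1506 lower.

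**Figure D4:**
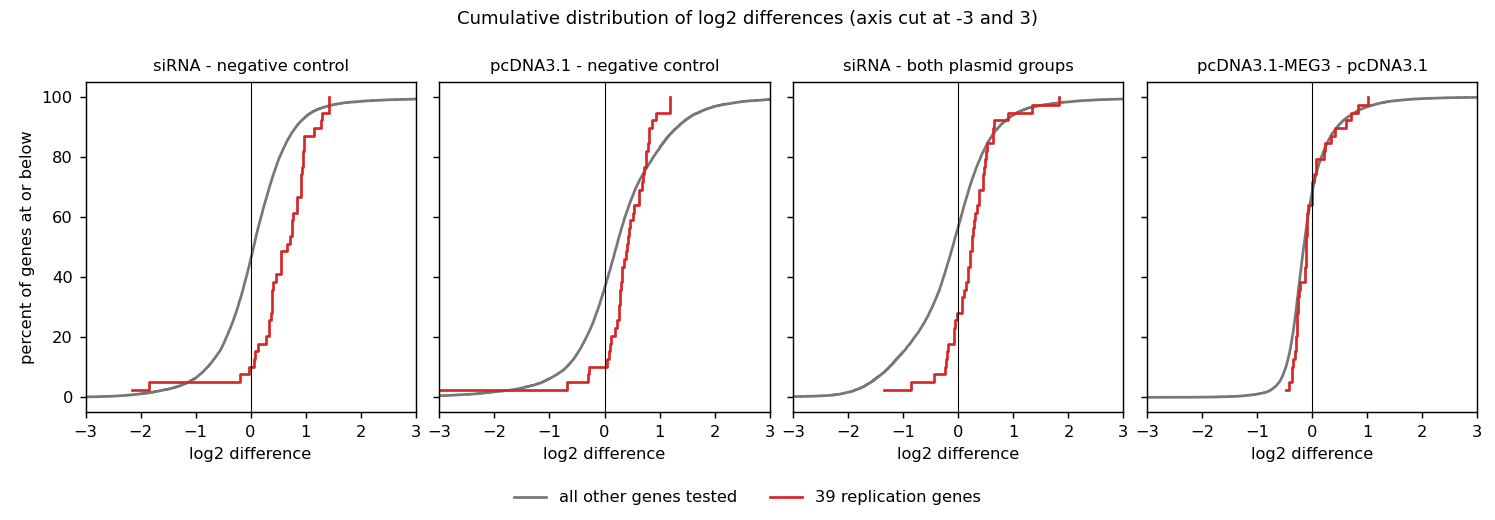
Cumulative distribution of log2 differences for the 39 genes and for all other genes tested in 4 comparisons, cut at -3 and 3. The 39 genes lie to the right of the others with siRNA set against the negative control (medians 0.66 and 0.06 over all genes tested) and on top of them between the plasmid groups (-0.11 and -0.16).

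The 7 genes with a second probe left 5 in which both probes could be tested. The other probes of Ccne1 (0.83), Cdc6 (1.08), Chaf1b (0.85), Rfc4 (1.01) and Slbp (0.52) had the direction of the brightest in siRNA against the negative control, and none of these 5 other probes passed on its own over all probes. The other probe of Cdc6 was called against both plasmid groups (0.99, limma adjusted p = 0.0336 over all probes). Between the plasmid groups the 2 probes differed in sign for Cdc6 (-0.11 and 0.73), Ccne1 (-0.11 and 0.85), Rfc4 (-0.48 and 0.34) and Slbp (-0.0057 and 0.15) and shared it for Chaf1b (-0.13 and -0.036), none of them called. The second probes of Pole and Uhrf1 did not pass the filter.

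Other genes of the pathway were listed apart from the 39. Of 34 further replication genes, 10 were called higher on siRNA than on the negative control and 2 lower (median 0.25). Over all genes tested, 7.74% were called higher in that comparison and 4.63% lower (median 0.06). Examples are Dna2, a nuclease of Okazaki fragments (1.39, SE 0.15, limma adjusted p = 0.00549), Pole2, the second subunit of polymerase epsilon (1.03), and Topbp1, a firing factor (0.86). Of 18 further G1/S regulators 6 were called higher and 1 lower (median 0.40). One of the 6 is Cdk6, well above background on no array of either group, so that its call compares signals at background. Mybl2, a transcription factor of dividing cells, differed by 1.35, and E2f2, an activating E2F, by 1.08. E2f4, an E2F that works with the pocket proteins in resting cells, was lower (-1.56, SE 0.18, limma adjusted p = 0.00656). Ccnd1, the G1 cyclin that answers to serum, differed by -0.22 and was not called.

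Of 16 genes of mitosis 1 was higher and 1 lower (median 0.11), where 7.74% and 4.63% of all genes were. These counts lay near the shares over all genes. Foxm1, a driver of mitotic genes, was higher (1.02), Aurkb, the kinase of the chromosomal passenger complex, was lower (-3.09, SE 0.62, limma adjusted p = 0.0327), and Mki67, the proliferation antigen, was at 0.27 and not called. Of 8 inhibitors and pocket proteins 1 was higher, Rbl1, the pocket protein p107 that is itself an E2F target (0.87, median of the list 0.26). Cdkn1a, the inhibitor p21, differed by 0.59 (SE 0.18, limma adjusted p = 0.0822) on siRNA and by 0.95 (limma adjusted p = 0.0205) on pcDNA3.1, where it was called. In the other comparisons the counts of higher and lower genes were 8 and 3 (pcDNA3.1 against the negative control) and 6 and 3 (siRNA against the plasmids) for further replication genes, 4 and 1 and 6 and 0 for G1/S regulators (Cdk6, again at background in both groups, among the 4), 0 and 2 and 4 and 0 for mitosis, 2 and 0 and 2 and 0 for inhibitors, and 0 in each list between the plasmid groups. Over all genes the shares higher and lower were 11.3% and 6.63% on pcDNA3.1. For siRNA against the plasmids they were 10.6% and 8.16%, and between the plasmid groups 0% and 0.00814%.

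Muscle genes moved on the same arrays. All 10 of 10 genes of terminal muscle differentiation, a list drawn up with earlier results of these arrays known, were called higher on siRNA than on the negative control (median 4.22). Over all genes 7.74% were called higher there and 4.63% lower. Myog, the factor that commits myoblasts to differentiate, read from -2.37 to -2.08 on the negative control and from 1.24 to 1.26 on siRNA (difference 3.46, SE 0.15, limma adjusted p = 0.000406). Mb, myoglobin, differed by 4.45, Casq2, a calsequestrin, by 5.78 and Tnnt3, a fast troponin, by 3.99. Of the 9 myoblast and muscle markers, which include Myog, 4 were called higher on siRNA than on the negative control and 1 lower: Myod1, the myoblast determination factor, differed by 2.29, Cdh15, a muscle cadherin, by 1.41 and Itga7, an integrin subunit, by 0.82. The lower one was Myf5, an early myoblast factor (-2.87, SE 0.33, limma adjusted p = 0.0067). Against the plasmid groups 9 of the 10 terminal genes were higher, where 10.6% of all genes were. Between pcDNA3.1 and the negative control 3 were, where 11.3% of all genes were. Markers of other cells also differed: the summed linear level of 5 fibroblast markers, in units of the 75th percentile, ran from 62.9 to 79.6 on the negative control, 45.1 to 46.8 on pcDNA3.1, 33.6 to 34.9 on pcDNA3.1-MEG3 and 75.1 to 77.2 on siRNA, with 0 of 5 called on siRNA against the negative control. That of 5 adipocyte markers ran from 3.12 to 3.63 on the negative control, from 0.157 to 6.14 on pcDNA3.1 (Lpl lacked a value on 1 array), from 4.79 to 5.30 on pcDNA3.1-MEG3 and from 11.6 to 12.4 on siRNA. Lpl, whose mean level on siRNA was 3.53, was called higher there (1.88). Adipoq (-1.08) and Plin1 (-1.14) had negative differences that were not called, and the signal of Adipoq cleared the background on 0 of 3 siRNA arrays. The part of these differences in the replication genes was not tested.

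Over the 8 samples, the genes whose profile was most like the mean of the 39 were Proser2 (Pearson r = 0.988), Nolc1, a nucleolar phosphoprotein (0.984), Foxred1 (0.983), Grhl1 (0.980) and Exd1 (0.980), out of 16358 genes compared. That mean took the genes with a value, 37 in the siRNA sample of replicates 1 and 3 and 39 in every other sample. Mcm3 and Pcna, both bright, were missing there, and the mean was 0.58 against 0.76 for siRNA replicate 2. The profile is therefore not that of a fixed set of genes, and its ranking carries this gap. The samples share scans within groups, so this is a description. Among the 37 members with a value in every sample, Mcm4 (0.953), Rrm1 (0.944) and Rrm2 (0.928) lay nearest to that mean, which includes them. Gins3 (-0.62) and Ccne2 (-0.50) lay farthest from it.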

How the data were processed

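Per the file headers, Agilent Feature Extraction 11.0.1.1 made the linear spot intensity used here, background already subtracted, spatially detrended and arrays not scaled to each other; flags of 0 or 1 stand beside them. The authors also deposited 1 series table of intensity values, whose scale and normalisation are not given in the sources used here. Its column medians ran from 276 to 277, its ranks followed the scanner signal, and it served as an alternative. Each array had 44397 spots, of which 1377 were controls; 0 were saturated. Outlying spots were left out and the log2 intensity of spots of a probe averaged. Probe accessions were named through a RefSeq table of a later build than the files (27234 probes matched, 12195 did not), used for names only; promoter sequences and their coordinates are those of RefSeq, build GRCm38.p6.

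A probe entered the fit when all arrays of 1 group or more flagged it as well above background. limma 3.58.1 (R 4.3.3 and the data.table package, version 1.17.8) fitted all 4 groups together on 8 samples (lmFit, then eBayes; residual degrees of freedom 4, prior 1.90; two-sided tests adjusted by Benjamini-Hochberg over all genes) and was tested on simulated data. A bound ("at least") sets the bright group's mean against the higher, per array, of the dim probe's own signal and the least signal that a probe flagged as well above background had.

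The members and gene lists were chosen with earlier results of these data known. Values on every array are given for up to 3 genes per role, those called in most comparisons, and for genes called lower. Cdc6 and Gins2 lay outside this rule and are given on every array after their values were seen. Other genes are given mostly by range or difference. Of the other lists, up to 3 genes each and Myog, Cdkn1a, Ccnd1 and Mki67 are named. Alternatives covered scaling, background, filters, probe choice, sample counting, blocks and left-out samples. One alternative, keeping outlying spots, was added after Mcm3 and Pcna were seen to lack values.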

Additional observations from a re-analysis of the deposited data

How the results depend on the processing

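No member named as called changed the sign of its difference under any alternative tried. With median scaling, though, the pcDNA3.1 counts turned from mostly higher to mostly lower. There the members' median went from 0.42 to -0.03 and that of all genes from 0.22 to -0.23. Counts are of members higher and lower. Against the negative control, siRNA had 17 and 1 and pcDNA3.1 had 9 and 1; siRNA against both plasmid groups had 6 and 1, and the plasmid groups against each other 0 and 0. Counting 12 arrays as 12 samples gave, in that order, 27 and 2, 23 and 3, 15 and 3, and 3 higher between the plasmids; over all genes the higher counts went from 1897 to 5862, 2766 to 7975, 2593 to 5689 and 0 to 1495. With scan as a random block (correlation -0.321) the counts were 29 and 2, 28 and 3, 23 and 5, and 3 (over all genes 8019, 10925, 7277 and 1306 higher). With scan as a fixed block 1 member was higher between the plasmids, where 657 of all genes were. Negative control replicates 1 and 3 kept as separate samples gave 2 lower on siRNA and 14 higher on pcDNA3.1. Over all genes these were 1885 in place of 1136 and 4192 in place of 2766. Fits on only the groups compared gave 0 and 0 for siRNA (limma; 20 members at an unadjusted p under 0.05), 2 higher for pcDNA3.1, 16 and 3 for siRNA against the plasmids, and 3 between the plasmids. Over all genes these fits called 140, 3853, 5108 and 1340 higher. Median scaling gave 10 and 2, 2 and 3, and 14 higher, with 1093, 1032 and 4435 higher over all genes. No filter on dim probes gave 0 lower on siRNA, 3 higher on pcDNA3.1, and 2 and 0 against the plasmids. Over all genes it gave 801 lower on siRNA, 1895 higher on pcDNA3.1, and 2056 and 1490 against the plasmids. On pcDNA3.1, 3 were lower with quantile normalisation or the authors' series table, and 0 with probes well above background on all 12 arrays. Over all genes 2559, 2626 and 1559 were lower in these fits, in place of 1629. With outlying spots kept, an alternative chosen after seeing the data, 3 were higher against the plasmids, where 2256 of all genes were. Normexp, run on median signals because the columns used here hold no mean signal, stayed within 1.5 times every count.

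Leaving out 1 sample left a group with 1 and changed the counts over all genes too, so medians are given. Those of the members and of all genes ran from 0.60 to 0.74 and -0.03 to 0.15 for siRNA against the negative control. On pcDNA3.1 they ran from 0.39 to 0.53 and 0.15 to 0.32. For siRNA against the plasmids they ran from 0.17 to 0.27 and -0.13 to -0.04. Between the plasmids they ran from -0.15 to -0.07 and -0.20 to -0.10. With the replicate block the counts were 10 and 0, 3 and 1, 2 and 0, and 0 and 0. Over all genes they were 1126 and 708, 1904 and 1196, 1926 and 1449, and 0 and 1. Same-numbered samples did not deviate together (mean correlations -0.0275, -0.0549 and 0.0104), so they share only a number. The members' median lay above that of all genes by 0.61 for siRNA against the negative control (0.33 to 0.66 over the alternatives) and by 0.05 between the plasmids (0.02 to 0.08). For pcDNA3.1 against the negative control it lay above by 0.20 (0.11 to 0.29), and for siRNA against the plasmids by 0.35 (0.20 to 0.39). Against the negative control on siRNA, Mcm5, Cdc6, Mcm10, Tyms, Rrm2 and Uhrf1 lost their call only in the fit on these groups alone. With 2 samples a group, the number of arrays limits the precision.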

Other observations

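Aurkb and E2f4, outside the 39, had their highest mean level on the negative control, followed by siRNA. Aurkb had mean levels of -2.74 on the negative control, -7.51 on pcDNA3.1, -8.30 on pcDNA3.1-MEG3 and -5.84 on siRNA, and its signal was well above background on all negative control and siRNA arrays and on no plasmid array. E2f4 had mean levels of -0.23, -3.72, -3.59 and -1.80 in the same order, well above background on all 12 arrays. They were chosen for mention after their values were seen.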
